A study of Mus musculus with 4 samples.

Results

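The Wnt ligand and receptor genes examined here comprise 33 mouse genes, namely 19 Wnt ligands, 10 Frizzled receptors and the 4 co-receptors Lrp5, Lrp6, Ror1 and Ror2. They were described through the CTCF-bound regions called near them. A region was assigned to a gene when its summit, the base of highest ChIP signal, lay within 20 kb of the gene span in the mm10 build. By this rule 65 of the 20043 regions of the control list and 50 of the 16128 regions of the list labelled CTCF knockout were assigned, each counted once. The set was selected on a measured value: a region inside Wnt5a had the highest fold enrichment of all 6211 control regions that no region of the second list overlapped. The Wnt5a values, and the kept and lost calls of the whole set, are therefore descriptions with no test.

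CTCF is the zinc-finger protein that marks insulators and the anchors of chromatin loops. Its binding was profiled with ChIP-seq, the sequencing of immunoprecipitated chromatin, in isolated left-ventricular cardiac myocytes from C57BL/6 mice. There was 1 library of control mice and 1 of mice labelled CTCF knockout. Each was made from cells pooled over 3 hearts, and the input sample of each genotype was not analysed here. The allele, the Cre driver if any, and the age of the mice were not given in the sources used here. With 1 ChIP library per genotype there is no replicate and no test, and every interval covers counting error only. A list of CTCF regions holds no expression value, so the cell type could not be checked against its markers, nor the deletion against CTCF itself. All 3 control regions within 20 kb of Ctcf had an overlapping region in the other list.

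Wnt proteins are secreted, lipid-modified ligands that bind the extracellular domain of Frizzled receptors. With the co-receptors Lrp5 or Lrp6 they stabilise beta-catenin, which enters the nucleus and acts with TCF/LEF factors. With Ror1 or Ror2, receptor tyrosine kinase-like proteins bound by Wnt5a, they signal without beta-catenin. In the heart the pathway is known for roles in the specification of cardiac precursors and in the response of the adult myocardium to injury.

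Promoter sequence bears on these data at 3 of the genes, because the summit of a called control region fell inside their promoter window. RefSeq promoter sequences (GRCm38.p6, from 250 bases before to 50 after the annotated start, read 5′ to 3′ along the gene) matched 23 of the 33 genes, with 26 windows. The 3 windows with a summit, 11.5% of the 26, belong to Wnt1, Ror1 and Ror2. Over all 32851 promoter windows 3.81% held a control summit. The window of the non-coding gene Gm33770, which starts inside the Wnt11 span, is added because it holds the summit of a control-only region. Capitals in Wnt1 and Ror2 mark a match to the CTCF core letters on either strand, which are CC, any 3 bases, AG, any 2 bases and GGC. In Ror1, which has no such match, capitals mark the run AGAGGGCGC, which it shares with Ror2. That run was chosen after the sequences were seen.
Wnt1 (chr15:98789607-98789906, plus strand): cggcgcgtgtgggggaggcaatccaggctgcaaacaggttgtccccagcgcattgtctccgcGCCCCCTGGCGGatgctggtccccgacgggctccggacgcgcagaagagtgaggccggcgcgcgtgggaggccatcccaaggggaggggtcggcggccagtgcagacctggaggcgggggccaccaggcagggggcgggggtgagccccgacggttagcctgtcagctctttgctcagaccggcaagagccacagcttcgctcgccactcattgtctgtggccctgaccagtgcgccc
Ror1 (chr4:100095541-100095840, plus strand): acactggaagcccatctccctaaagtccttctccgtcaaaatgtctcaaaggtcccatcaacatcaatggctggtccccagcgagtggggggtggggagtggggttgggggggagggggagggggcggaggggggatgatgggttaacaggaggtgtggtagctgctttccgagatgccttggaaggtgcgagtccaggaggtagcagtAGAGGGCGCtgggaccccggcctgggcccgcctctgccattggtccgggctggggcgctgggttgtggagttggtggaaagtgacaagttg
Ror2 (chr13:53286075-53286374, minus strand): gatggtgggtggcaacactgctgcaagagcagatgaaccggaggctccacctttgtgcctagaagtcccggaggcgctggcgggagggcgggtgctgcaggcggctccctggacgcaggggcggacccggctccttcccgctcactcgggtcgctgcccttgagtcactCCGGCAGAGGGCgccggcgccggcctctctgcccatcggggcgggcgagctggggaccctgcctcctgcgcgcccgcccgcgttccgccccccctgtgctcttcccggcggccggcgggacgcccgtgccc
Gm33770 (chr7:98836046-98836345, minus strand): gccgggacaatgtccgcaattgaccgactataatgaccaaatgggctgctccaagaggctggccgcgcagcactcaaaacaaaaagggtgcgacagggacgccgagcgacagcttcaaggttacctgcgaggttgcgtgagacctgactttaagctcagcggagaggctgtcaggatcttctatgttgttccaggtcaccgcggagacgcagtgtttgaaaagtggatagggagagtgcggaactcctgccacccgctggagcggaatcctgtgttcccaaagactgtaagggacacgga

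Positions in these windows are counted from 1 at the 5′ end of the printed strand. In the Wnt1 window the match spans positions 63 to 74 and reads CCGCCAGGGGGC on the opposite strand. The control summit stood at position 76 and the summit in the library labelled knockout at position 54; both lay beside the match. In the Ror2 window the match, CCGGCAGAGGGC, spans positions 170 to 181, and the control summit stood at position 208. The Ror2 region was called in both libraries, but the second summit lay 154 bp from the control one, inside the gene. In the Ror1 window the shared run spans positions 210 to 218, with the control summit at 197 and the second summit at 251. Ror1 and Ror2 each face a non-coding gene that starts on the opposite strand, Gm35701 and Gm33574, whose promoter windows hold the same summits.

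The core letters occurred in 8.61% of all promoter windows, in 40.0% of the 1251 windows with a control summit and in 7.36% of the windows without one. A stricter form with AGG in place of AG, and 1 free base after it, occurred in 3.43%, 25.7% and 2.55%. Of the 26 windows at the Wnt and receptor genes 4 held the core letters, at Wnt1, Ror2, Fzd5 and Fzd9, and only the Wnt1 match fitted the stricter form. The run AGAGGGCGC occurred in 0.804% of all windows and in 9.19% of those with a control summit. Across the 501 windows with both a control summit and the core letters, the median distance between them was 23.5 bp. No match was found in the Gm33770 window, which says only that these letters are not in it.

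The number of regions near each gene varied from 0 to 6 in both lists. At least 1 control region was near 25 of the 33 genes (75.8%), where 60.1% of 21883 protein-coding genes had one. A region of the second list was near 22 genes (66.7%, background 54.2%). The median number of control regions per gene was 2 here and 1 over all protein-coding genes. Control regions were called at 17 of 19 Wnt ligand genes, at 4 of 10 Frizzled genes and at all 4 co-receptor genes. The lengths differ, with a median span of 22.9 kb for the ligands, 4.59 kb for the Frizzled genes, which are mostly short, and 149 kb for the co-receptors. Counted per megabase of covered sequence, the ligand windows held 36.9 control regions, the Frizzled windows 14.9, the co-receptor windows 13.2 and the windows of all protein-coding genes 11.6. The density was thus higher around the ligands than around either receptor class in these lists.

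**Figure D1:**
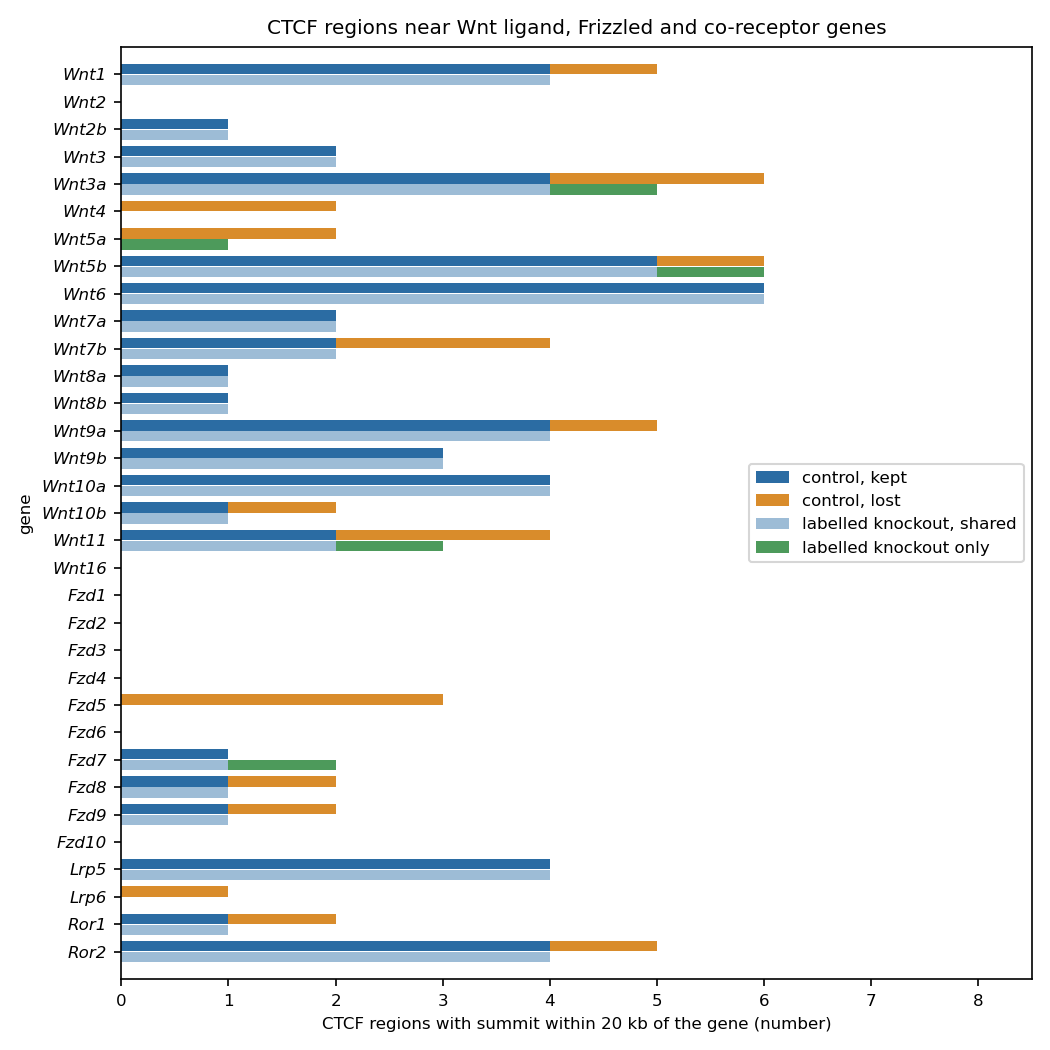
Number of CTCF regions with a summit within 20 kb of each of the 33 genes (x axis, regions; y axis, genes). The upper bar of each gene splits control regions into kept and lost, the lower bar splits regions of the library labelled knockout into shared and unshared; a region near 2 genes is drawn at both. Wnt3a, Wnt5b and Wnt6 reach 6 control regions, and 8 genes have none in either list.

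Of the 65 control regions, 45 (69.2%, Wilson 95% interval 57.2 to 79.1) were overlapped by at least 1 bp by a region of the library labelled knockout, and are called kept. Over the whole control list the share was 69.0%. The other 20 are termed lost, meaning no more than that the second list has nothing overlapping them, and 31.0% of the whole list were lost. In the reverse direction 5 of the 50 regions (10.0%, interval 4.35 to 21.4) had no control region under them, where the whole second list had 14.2%. With a fold enrichment of at least 5 required in both lists that order turned, with 18.2% (8 of 44) near these genes and 16.8% of the whole list. The background shares lie within the intervals of both. The kept share counts as lost the Wnt5a region on which the set was selected, so it is a description with no test. By class, 33 of 45 regions were kept near ligands (73.3%, interval 59.0 to 84.0), 3 of 8 near Frizzled genes (37.5%, 13.7 to 69.4) and 9 of 12 near co-receptors (75.0%, 46.8 to 91.1). All 3 intervals hold the background share of 69.0%, the Frizzled one only narrowly. The intervals treat regions as independent, but 3 of the 8 Frizzled regions, all lost, lie inside Fzd5. No difference between the classes was tested. Among the 25 genes with a control region, all regions were kept at 10 (40%) and none at 4 (16%). Over all protein-coding genes with a control region, 51.5% kept all and 15.4% kept none. These shares depend on the number of regions per gene, which was not matched. Its mean was 2.30 control regions here and 1.33 over all protein-coding genes. Wnt5a could not have kept all, because the set was selected on its lost region.

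**Figure D2:**
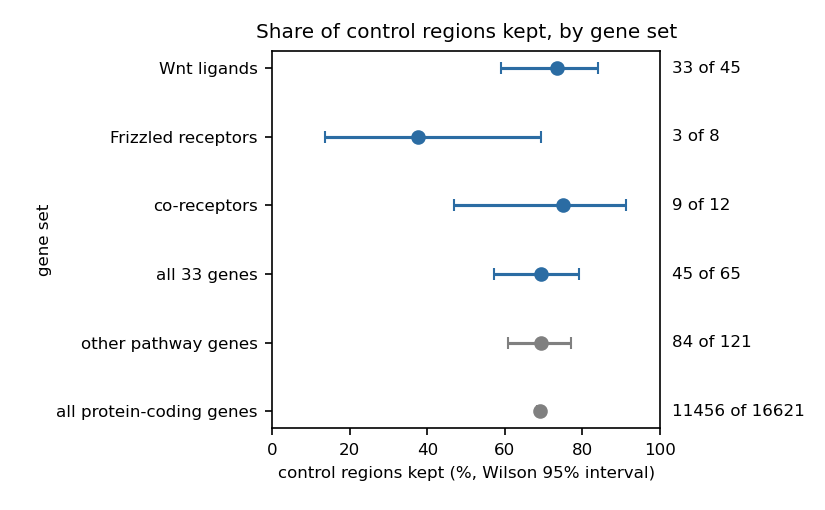
Share of control regions kept (x axis, percent, bars are Wilson 95% intervals) for each class of gene (y axis), with kept and total numbers at the right. The Frizzled point, 3 of 8, has the widest interval, and all intervals include the 68.9% found near all protein-coding genes.

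Whether a region was kept varied with its strength. The deposited fold enrichment and p-value allow the pileup, the number of reads stacked at the summit, to be recovered. Lost regions near the 33 genes had a median control fold enrichment of 5.41 and a median pileup of 10.5 reads, and kept ones 7.98 and 16 reads. Of the 20 lost regions 15 had a pileup under 15 reads, as did 16 of the 45 kept ones. Between 6 and 9 reads 2 of 8 were kept, between 10 and 14 reads 14 of 23, between 15 and 19 reads 16 of 19, and between 20 and 29 reads 12 of 12. The matching shares of the whole control list were 20.7%, 51.8%, 83.8% and 95.9%. At 30 reads or more 1 of 3 was kept and 96.4% of the list, and the lost regions there lie inside Wnt5a and Ror2. The Wnt5a region was the one the set was selected on, so nothing is read from this class; without it 1 of 2 was kept. All control regions of the same pileup, within 2 reads, would give 67.5% kept for the 65 regions and 53.6% for the 8 near Frizzled genes.

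**Figure D3:**
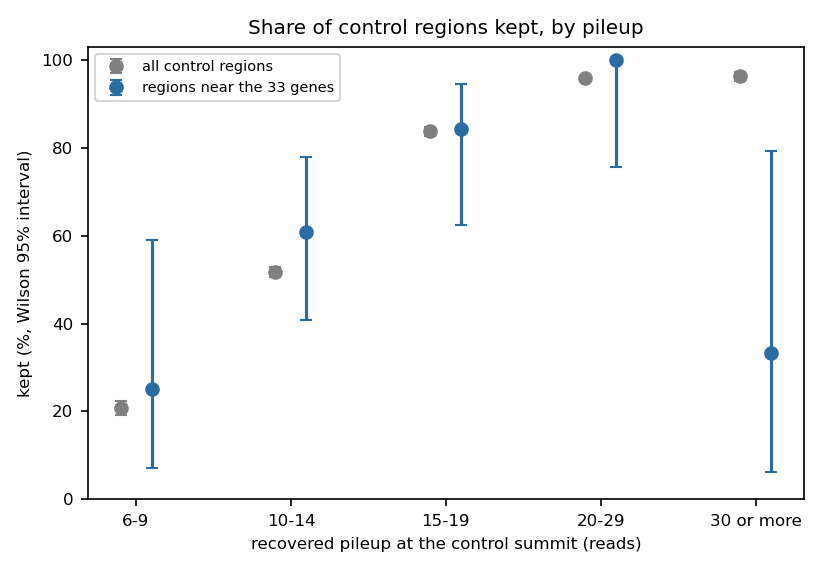
Share of control regions kept (y axis, percent, with Wilson 95% intervals) by recovered pileup at the control summit (x axis, reads), for all control regions and for those near the 33 genes. Both series rise up to 29 reads; the last class holds 3 regions near these genes, one of them the Wnt5a region on which the set was selected, and 1405 of the list.

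Wnt5a encodes the ligand best known for signalling through Ror2, and none of its 2 control regions was kept. The stronger one lies inside the gene (chromosome 14, 28507532 to 28507821), with a fold enrichment of 15.2 and a pileup of 31 reads. It ranked 637th of 20043 by control fold enrichment. Of the 761 control regions with 29 to 33 reads, 4 were lost and this is one of them. The set was selected on this region as a strong lost one, so nothing is read from that rarity. The locus was not empty in the second library. There a region was called at 28507242 to 28507476, which ends 55 bp short of the control region, with a fold enrichment of 4.32 and a pileup of 7 reads. The summits lay 269 bp apart, so the lost call rests on a gap shorter than either region. The weaker control region, near the lower-coordinate end (28505094 to 28505318), had 4.38 and 8 reads, and the nearest region of the second list lay 1923 bp away. Control regions of 6 to 10 reads were kept in 25.8% of cases.

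Such near misses were counted for the whole set after the Wnt5a case had been seen. A region of the other list lay within 500 bp of 4 of the 20 lost regions (20%), and of 9.90% of all lost regions. The 4 lie at Wnt5a, Wnt7b, Wnt5b and Wnt11. At Wnt7b, Wnt5b and Wnt11 the nearby region of the second list already overlapped another control region, which was kept. Only at Wnt5a did it overlap no control region. If a gap of up to 500 bp is counted as shared, 49 of the 65 regions (75.4%) are kept, and 72.1% of the whole list. Under that setting the same region of the second list can count for several control regions, as at Wnt7b, Wnt5b and Wnt11. The Wnt5a region then counts as kept.

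Wnt5b, the close relative of Wnt5a, differed from it in that 5 of its 6 control regions were kept. The strongest (chromosome 6, 119444201 to 119444503) is inside the gene and had a fold enrichment of 14.7 with 33 reads in the control and 12.4 with 31 reads in the other list. The only lost region (119472602 to 119472743) had 4.49 and 8 reads, and a region of the other list lay 89 bp away. That neighbour overlapped a different control region, which was kept. One region was called only in the library labelled knockout (119449163 to 119449317, fold enrichment 5.62, 12 reads), with its summit 185 bp from one of the gene's 3 annotated starts. Wnt11, a ligand known for its part in cardiac specification, had 2 kept and 2 lost control regions within the first few kilobases of its span. The strongest kept one (chromosome 7, 98837949 to 98838220) had 11.2 with 22 reads, and 5.40 with 9 reads in the other list. The stronger lost one (98838931 to 98839370) had 7.45 with 15 reads, and lies 173 bp from an annotated Wnt11 start. The other lost one (98836166 to 98836320, 5.43, 10 reads) is the region in the Gm33770 promoter printed above. The gap to the next region of the second list was 288 bp, and that region overlapped a kept control region. A region called only in the second library (98837061 to 98837248, 4.27, 10 reads) lies 64 bp beyond a kept control region. The Wnt11 gene thus held called regions in both libraries, at partly different places.

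**Figure D4:**
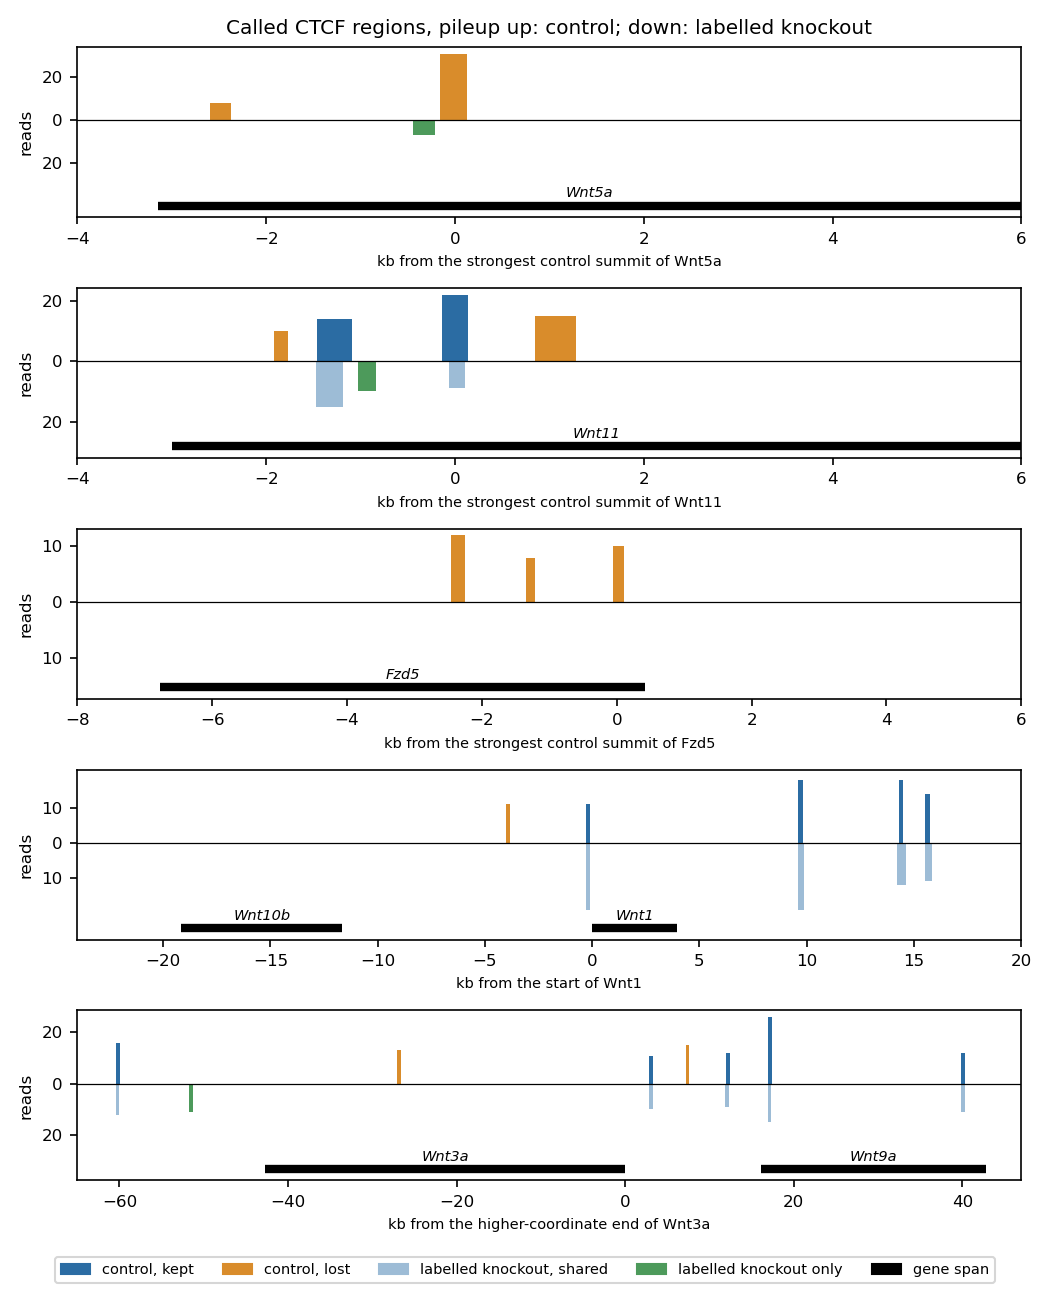
Called regions at 5 loci, drawn to scale along the x axis (kb from a summit or gene end; widths raised to a visible minimum in the 2 widest panels), with the recovered pileup in reads upward for the control and downward for the library labelled knockout, and black bars for gene spans. In the Wnt5a panel a region of 7 reads stands beside, and not under, the control region of 31 reads, and the Fzd5 panel has no region below the axis.

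Wnt4, a ligand of kidney and gonad development, was the other ligand gene with no kept region. Its control regions had a fold enrichment of 5.36 with 10 reads inside the gene (chromosome 4, 137287972 to 137288131) and 6.04 with 13 reads beyond it (137308547 to 137308722). The nearest region of the second list was 92.0 kb from Wnt4. Control regions of these pileups were kept in 36.5% and 59.3% of cases, so a loss at such strength was common in the list.

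4 pairs of Wnt genes lie next to each other, and several of their regions fall in both windows. Near Wnt6 and Wnt10a, both ligands of epithelial tissues, all 7 control regions were kept. The strongest, 4.10 kb beyond Wnt10a (chromosome 1, 74808171 to 74808426), had a fold enrichment of 14.5 with 29 reads, and 11.3 with 20 reads in the other list. The strongest near Wnt6 (74748910 to 74749140) had 11.5 with 22 reads and 9.12 with 16, and its summit lies in the promoter window of the neighbouring gene Prkag3. It is near Wnt6 only by the RefSeq span, whose lower end lies 17.55 kb before the start used in the promoter table. Near Wnt3 and Wnt9b, whose RefSeq spans overlap, all 3 control regions were kept. Their strongest (chromosome 11, 103758774 to 103759148) had 8.97 with 17 reads and 7.80 with 15. Near both of these pairs no region was called in the second library alone.

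Wnt1, the founding member of the family, and Wnt10b stand 11.65 kb apart on chromosome 15, and 4 of 5 control regions around them were kept. The region in the Wnt1 promoter (98789589 to 98789729) had a control fold enrichment of 5.68 with 11 reads, and 9.96 with 19 reads in the other list. The strongest kept one, 5.73 kb beyond Wnt1 (98799465 to 98799694), had 8.20 with 18 reads and 8.64 with 19. The lost one (98785856 to 98785991, 5.98, 11 reads) lies between the pair, 3.95 kb from Wnt1 and 7.70 kb from Wnt10b. Wnt3a, a strong activator of beta-catenin, and Wnt9a stand 16.1 kb apart on chromosome 11, with 5 of 7 control regions kept. The strongest kept one is inside Wnt9a (59307709 to 59308104), with 10.5 and 26 reads in the control and 6.92 and 15 reads in the other list. The stronger lost one (59298001 to 59298317, 7.98, 15 reads) lies between the genes, and the weaker one inside Wnt3a (59263854 to 59263991, 6.82, 13 reads). A region called only in the second library lies 8.85 kb from Wnt3a (59239114 to 59239309, 6.48, 11 reads). In each of the last 2 pairs, the stretch between the genes held 1 lost region next to kept ones.

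Among the other ligands Wnt7b had the most control regions. Wnt7b kept 2 of 4 control regions, the strongest (chromosome 15, 85598919 to 85599193) with 8.87 and 19 reads against 10.9 and 27 reads in the other list. Its stronger lost region (85583552 to 85583803, 6.37, 12 reads) lies 126 bp from a region of the second list, which overlapped a kept control region. Wnt7a, its paralogue, kept both of its regions, of which the one 530 bp from its start (chromosome 6, 91411764 to 91412181) had 7.48 with 14 reads and 10.8 with 24. Wnt2b had 1 region, kept, 6.48 kb before its start (chromosome 3, 104968069 to 104968396), with 13.0 and 25 reads in the control and 9.75 and 19 in the other list. Wnt8b also had 1, kept, with its summit 19.1 kb from the gene (chromosome 19, 44474237 to 44474553, 13.2 with 26 reads and 10.3 with 18). Wnt8a had 1, kept, 3.94 kb from the gene (chromosome 18, 34538266 to 34538533, 8.28 with 16 reads and 12.6 with 23). No region was called near Wnt2 or Wnt16 in either library. Side by side, these values lie above or below each other in no fixed order, and no direction is read from them because each fold enrichment is relative to its own library.

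**Figure D5:**
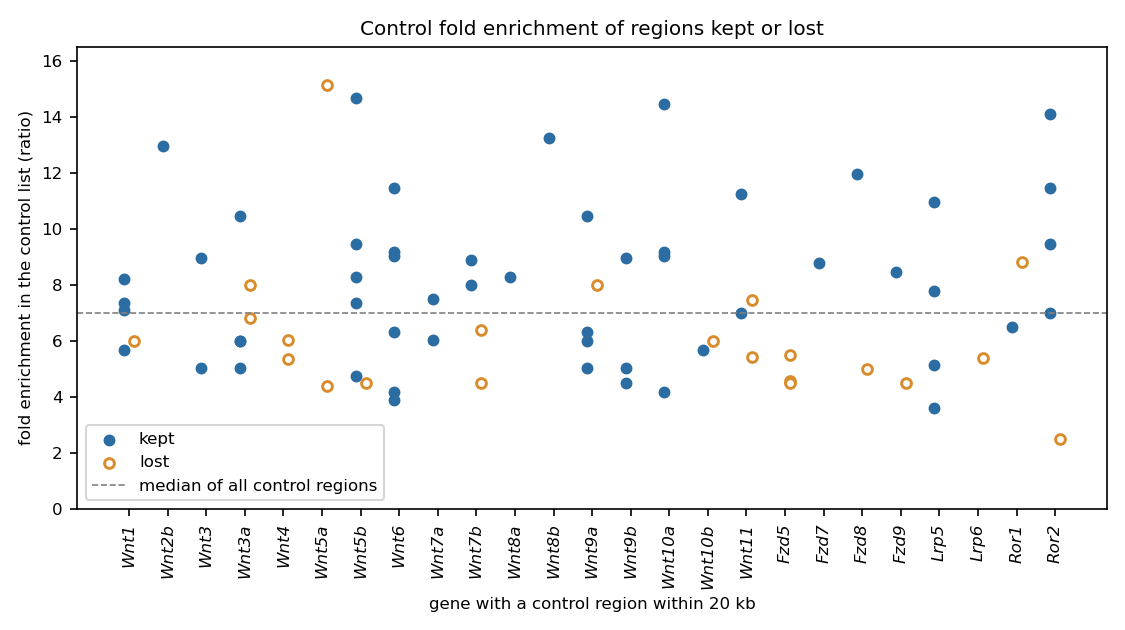
Fold enrichment in the control list (y axis, ratio to the local background) of every control region near the 25 genes that have one (x axis), with filled points for kept and open points for lost regions; a region near 2 genes is drawn at both. The Wnt5a region at 15.2 is the only open point above 9, and the dashed line marks the median of the whole control list, 6.98.

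Among the Frizzled receptors, the seven-pass membrane proteins that bind Wnt ligands, 6 genes had no region within 20 kb in either library. These were Fzd1, Fzd2, Fzd3, Fzd4, Fzd6 and Fzd10, and 39.9% of all protein-coding genes had no control region in this window. The nearest control summit lay 22.3 kb from Fzd3, 25.6 kb from Fzd2, 27.7 kb from Fzd4, 31.0 kb from Fzd6, 78.2 kb from Fzd10 and 154 kb from Fzd1. The first 4 of these distances do not exceed 31.0 kb, so a wider window would count those genes.

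Fzd5 had 3 control regions, all inside its short span and all lost. From the lower coordinate up they had a fold enrichment of 4.57 with 12 reads (chromosome 1, 64734870 to 64735075), 4.49 with 8 reads (64735984 to 64736119) and 5.48 with 10 reads (64737275 to 64737432). The last lies 421 bp from the gene's start. The nearest region of the second list was 113 kb from Fzd5, the longest such distance among genes with a control region. These are weak regions, and control regions of such pileups were kept in 25.8% to 51.8% of cases. A further control region, 20.6 kb from the gene and just outside the window, had 4.99 with 9 reads and was lost too. Genes with control regions but no region at all in the second list were 3 of 25 here, namely Wnt4, Fzd5 and Lrp6, and 13.4% of all protein-coding genes with a control region.

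Fzd7, Fzd8 and Fzd9 each kept 1 region. The Fzd7 region inside the gene (chromosome 1, 59483771 to 59484063) had 8.76 with 17 reads, and 5.19 with 11 reads in the other list. Fzd7 also had a region called only in the second library, 90 bp after its start (59482169 to 59482305, 5.40, 9 reads), and the nearest control region was 1465 bp away. At Fzd8 the kept region inside the gene (chromosome 18, 9213473 to 9213680) had 11.96 with 23 reads and 6.92 with 15. The lost one, 530 bp outside (9212246 to 9212391), had 4.99 with 9 reads, and a region of the second list lay 883 bp away. Both regions near Fzd9 lie inside its neighbour Baz1b, a chromatin remodelling gene. The kept one (chromosome 5, 135236469 to 135236839) had 8.47 with 16 reads and 5.94 with 10, and the lost one (135238937 to 135239096) 4.49 with 8. At all 3 genes the stronger or only control region was kept.

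The co-receptors Lrp5 and Lrp6 are close relatives in the same step of the beta-catenin branch. Lrp5 had 4 control regions, all kept. The strongest is inside the gene (chromosome 19, 3623500 to 3624226), with a fold enrichment of 11.0 and 21 reads in the control and 8.29 and 16 reads in the other list. The weakest, 13.1 kb outside (3699594 to 3699890), had 3.59 with 13 reads in the control and 11.9 with 21 reads in the other list, and its local background in the control, 2.90 reads, was above the lowest of that library, 1.01. Lrp6 had 1 control region (chromosome 6, 134454045 to 134454212, 5.39, 10 reads). It was lost, and the nearest region of the second list lay 40.6 kb from the gene. Another control region 21.1 kb from Lrp6, just outside the window, was lost as well, with 5.04 and 12 reads.

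Ror1 and Ror2 are long genes, of 349 and 177 kb. Ror2 kept 4 of 5 control regions. The strongest (chromosome 13, 53109583 to 53109870), at its lower-coordinate end opposite the start, had a fold enrichment of 14.1 with 28 reads in the control and 15.3 with 28 reads in the other list. The promoter region printed above (53286032 to 53286338) had 6.98 with 13 reads and 4.86 with 8. The lost one (53269834 to 53270062) had the largest pileup of all 65 regions, 55 reads, but a fold enrichment of 2.48, with a recovered local background of 21.6 reads. It ranked 19951st of 20043 by fold enrichment. Of the 51 control regions with 53 to 57 reads, 78.4% were kept. Ror1 kept the region at its promoter (chromosome 4, 100095610 to 100095948, 6.48 with 12 reads and 6.21 with 15). It lost a stronger one deep inside the gene (100407533 to 100407823), with 8.83 and 17 reads, 180 kb from the next region of the second list. Control regions of 15 to 19 reads were kept in 83.8% of cases. No region near a co-receptor was called in the second library alone.

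The regions of the second list with no control counterpart were thus 5, at Fzd7, Wnt3a, Wnt5a, Wnt5b and Wnt11, with pileups of 7 to 12 reads. Genes with such a region were 5 of 33 here and 12.0% of all protein-coding genes. Of these 5 regions 2 lie within 64 bp of a control region, at Wnt5a and Wnt11. Among the 45 kept regions, the control summit and that of the overlapping region lay a median of 34.0 bp apart, with 26.0 bp over all kept regions.

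For the rest of the pathway 67 further genes were listed, from ligand secretion to nuclear effectors, and 50 of them had a control region within 20 kb. Of their 121 control regions 84 were kept (69.4%, interval 60.7 to 76.9), beside 69.2% near the ligand and receptor genes. By step, all 3 regions were kept near ligand secretion and inactivation genes, 8 of 11 near other receptors and co-receptors, 11 of 14 near secreted or membrane antagonists, 10 of 12 near R-spondins and their receptors, 17 of 30 near cytoplasmic relay and destruction complex genes, 21 of 27 near nuclear effectors and 14 of 24 near planar cell polarity genes. The strongest kept regions were near Wif1, a secreted Wnt inhibitor (control fold enrichment 18.9, and 14.9 in the other list), Reck, a partner of Wnt7 signalling (16.9 and 9.26), Apcdd1 (14.2 and 14.6), Celsr2 (14.2 and 7.40) and Dvl1 (13.97 and 8.64). The strongest lost ones were near Sfrp4, a secreted Frizzled-like inhibitor (10.5), Axin1, the scaffold of the destruction complex (9.47), Celsr3 (9.06), Tcf7l1 (7.48) and Ptk7 (7.34). None of the 3 control regions of Axin1 was kept. No control region was kept at 6 of the 50 genes (12%), against 15.4% of all protein-coding genes.

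At the edge of the window the calls were mixed. Just inside 20 kb lay the kept Wnt8b region at 19.1 kb and a lost Wnt7b region at 17.98 kb (4.49, 8 reads). Kept regions also lay 17.5 kb from Wnt3a and 17.3 kb from Wnt7b. Just outside lay the lost Fzd5 region at 20.6 kb, the lost Lrp6 region at 21.1 kb and a kept region 22.3 kb from Fzd3, with 10.5 and 20 reads in the control. A lost region of 13 reads lay 24.9 kb from Wnt8a.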

How the data were processed

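CTCF ChIP-seq regions of 2 libraries, 1 per genotype, were used, and the 2 input samples were not analysed here. The submitters' processing notes name mm10, MACS2, SAMtools 0.1.19 and Bowtie2 2.2.6; the calling threshold and duplicate handling were not given in the sources used here. The authors' deposited lists, 1 per library, give each region a fold enrichment (a ratio to the local background), a −log10 p and −log10 q, a score and a summit. A called region depends on depth, so a weak region can be missed in a shallower library. Depth is not in the lists. The lowest local background was 1.01 reads in the control and 0.851 in the other library.

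Gene spans came from a RefSeq table (GRCm38.p6, the assembly called mm10), in which all 33 genes and the 67 further pathway genes were matched. No genome sequence was used, so region sequences outside promoter windows are not shown. Pileup was solved from fold enrichment, (pileup + 1) / (background + 1), and an upper Poisson tail; for 100% of regions a whole number of reads returned the −log10 p to within 0.001. The method was tested on data simulated from the same formula, which checks the calculation and not the formula itself. The simulated backgrounds did not reach the 21.6 reads recovered at Ror2. Shares have Wilson 95% intervals. The genes, lists and settings were chosen with earlier results of these data known. Every gene is accounted for; described in full are its strongest kept and lost region and all regions called only in the second library, and for the further genes the 5 strongest of each kind. Alternatives were stricter thresholds, other overlap rules, lists of equal length, a pileup of at least 15 and other gene windows. The tools were matplotlib 3.10.9, scipy 1.17.1, pandas 2.3.3 and numpy 2.4.6 under Python 3.11.15.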

Additional observations from a re-analysis of the deposited data

How the results depend on the processing

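No paired analysis was possible because there was 1 ChIP library per genotype. Of 84 values recomputed under other settings, 72 stayed within counting error or, for numbers, within 1.5 times, and 12 moved. With a control pileup of at least 15 reads, 34 control regions remained near the 33 genes and 85.3% were kept (90.6% of the whole list), with 87.0% near ligands, 81.8% near receptors and co-receptors and 94.4% near the further pathway genes. With summits inside the gene span, 33 control regions, 26 regions of the other list and 16 genes with a control region remained. The kept shares were then 60.6% near the 33 genes, 66.7% near ligands, 50% near receptors and co-receptors and 60.0% near the further pathway genes. The matching share over all gene spans was not computed. With the control list shortened to the length of the other list, 78.6% were kept near receptors and co-receptors and 80.6% near the further pathway genes (78.5% of the whole list). A reciprocal overlap of at least 50% gave 52.9% near the further pathway genes (59.8% of the whole list). The share of second-list regions without a control region, 10.0% near the 33 genes, was 15% at a −log10 q of at least 5 (16.2% of the whole list), 16% by reciprocal overlap (25.7%), 18% with summits within 100 bp (19%), 18% with the shortened list (21.0%) and 15.4% inside gene spans. The strongest Wnt5a control region was kept when a gap of up to 500 bp counted as shared, a setting chosen after the data were examined, and that share was then 6.0% (11.6%). The planned settings that require overlap could not have made that region kept, since it was selected for having no overlap. The setting of summits within 100 bp does not require overlap. There the region stayed lost, with the summits 269 bp apart. Fewer, stronger regions enter under the pileup limit and the shortened list; the cause of the other shifts was not tested. Weak regions, under 15 reads, limit what can be said of single genes.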

Other observations

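Several regions counted for a Wnt or receptor gene lie in a neighbouring gene. The 2 control regions 10.4 and 11.7 kb from Wnt1 lie inside Ddn, a gene of the postsynaptic compartment, and both were kept, with control fold enrichments of 7.36 and 7.11 and 6.25 and 6.48 in the other list. Inside the long RefSeq span of Wnt5b lies Fbxl14, a ubiquitin ligase subunit gene, which holds a kept region (chromosome 6, 119483094 to 119483332) with 4.75 and 15 reads in the control and 9.46 and 18 reads in the other list. The RefSeq span of Wnt9b likewise runs 25.5 kb past the start used in the promoter table, and both of its regions shared with Wnt3 lie in that stretch.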
